A study of Mus musculus with 4 samples.

Results

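Collagens and stromal matrix genes were described in the livers of 4 ABCA1-transgenic mice, each measured on 1 oligonucleotide array. The set held every probe set whose single gene symbol was that of a collagen chain, together with decorin, lumican, fibrillin 1, elastin, Timp1, Sparc, smooth muscle actin (Acta2) and reelin. It came to 43 genes of the 12393 with a single symbol (68 of 22626 probe sets). Of these, 9 were fibrillar collagen chains, 8 were basement membrane chains, 19 were other collagens and 7 were stromal matrix genes. Fbn1, Col24a1 and Col27a1 were not analysed here. A gene with several probe sets was represented by the probe set of highest mean log2 signal, and levels of different probe sets were not set against each other.

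The animals were male C57BL/6 mice carrying an ABCA1 transgene, killed at an age of 5 to 6 months after feeding on NIH36 diet, and livers were snap-frozen. The labels conflict on the background that all 4 animals share: the series title names LDL receptor -/-, and the sample descriptions LDL receptor +/-. The sources used here do not give the promoter that drove the transgene. The series design sets transgenic against wild-type livers, and wild-type arrays were not analysed here. The values below therefore describe how the genes varied among the 4 animals, called mouse 1 to mouse 4 after their replicate numbers, and no effect of the transgene.

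Collagens are secreted proteins of 3 chains wound into a triple helix. Fibrillar collagens form the cables of the stroma, type IV chains form the sheet-like network of basement membranes, and smaller collagens decorate or link both. In healthy liver this matrix lies mainly in portal tracts, around vessels and as thin deposits along the sinusoids, and hepatic stellate cells, portal fibroblasts, endothelium and vascular smooth muscle are known to make it. Stellate cells that turn into myofibroblasts gain smooth muscle actin and make more type I and type III collagen.

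The liver markers Alb and Apoa1 were at 15.96 ± 0.08 and 16.17 ± 0.08 log2 (SD, n = 4), near the top of the signal range of all arrays, and hepatocyte markers as a list varied by an SD of 0.08 to 0.22 over 8 genes. Abca1 itself was at 12.82 ± 0.17 log2 (SD, n = 4), a level that without wild-type arrays does not check the labels. Pearson's r between arrays, across probe sets, ran from 0.95 to 0.96. Mouse 1 stood apart in several control and marker readings. Its 18S ribosomal control signal was 9.95 log2 against 8.75 to 8.98 in the others, its Gapdh 3-prime minus 5-prime log2 difference was 1.67 against 1.94 to 2.03, and the summed signal of 12 skeletal muscle markers was 1003 against 7223 to 10674. Values without mouse 1 are therefore given where they matter.

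No collagen or stromal matrix gene passed the test of excess spread between mice. The test was limma's comparison of the variance of each probe set with that usual for probe sets of its mean level (the prior variance), with Benjamini-Hochberg adjustment over all probe sets and a threshold of 0.05. It called 0 of 43 members and 0% of all probe sets, also when the prior was fitted without robust estimation. At an unadjusted p under 0.05 it called 3 of 43 members (6.98%), namely Col3a1, Acta2 and Col1a2, beside 3.7% of all genes and 3.71% of all probe sets. The SD between mice was larger than the prior SD for 29 of 43 members (67.4%), against 46.7% of all genes. On simulated data the adjusted test had little power. It found 5 of 50 altered probe sets when their SD was made 4 times larger, and 15 of 50 at 8 times. The largest ratio of a member's SD to the prior SD was 3.06, for Col3a1. The 0 calls therefore do not show that the members varied no more than usual.

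The clearest feature of the set was its order across animals, which is a description and was not tested. Of 43 members 22 had their highest level in mouse 3 (51.2%), where 33.5% of all genes did, and 16 had their lowest level in mouse 1 (37.2%), where 28.8% of all genes did. Among the 32 members with a mean log2 signal of at least 7, 16 were highest in mouse 3 (50%, against 34.1% of all genes at that level) and 14 were lowest in mouse 1 (43.8%, against 29.4%). Without mouse 1 the count highest in mouse 3 was 24 of 43 (55.8%, against 38.7% of all genes). Against the mean of the other 3 mice, 30 of 43 members were higher in mouse 3 (59.8% of all genes were), 23 in mouse 2 (57.9%), 17 in the fourth animal (42.9%) and 16 in the first (42.8%).

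**Figure D1:**
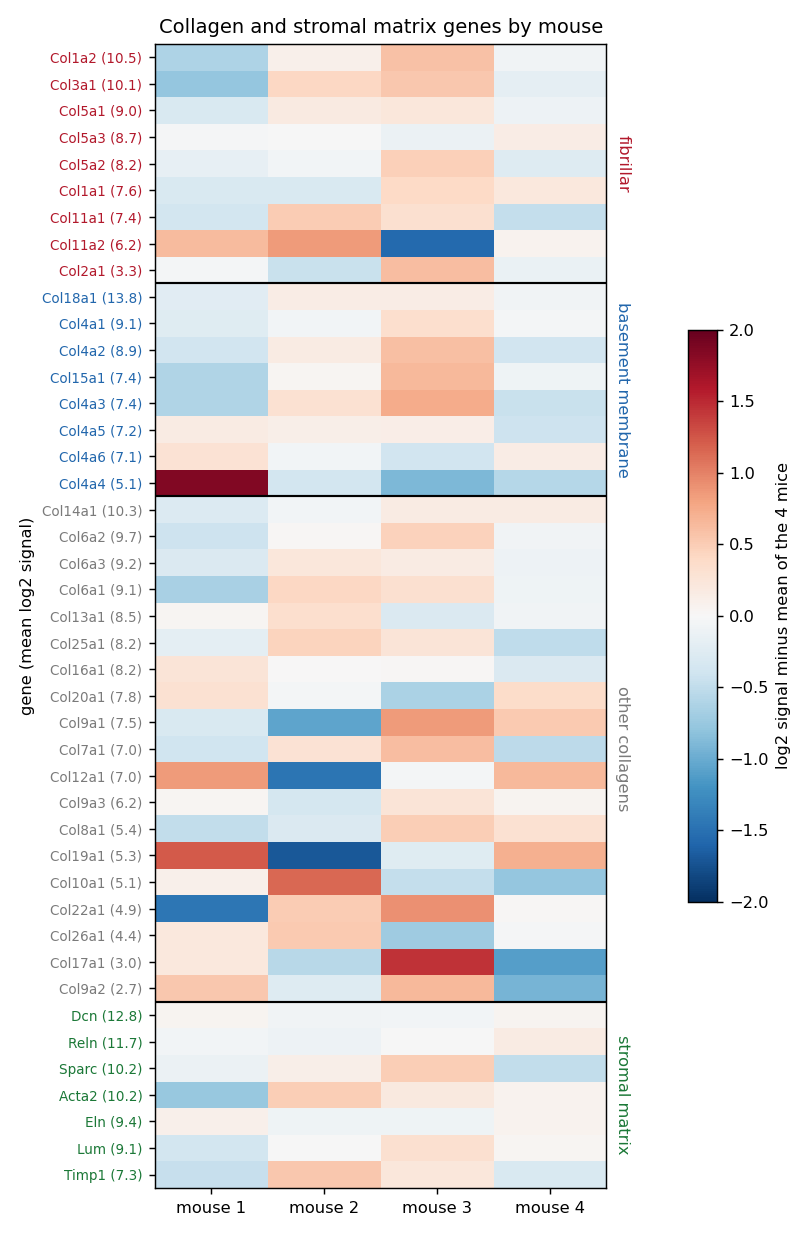
Each row is a collagen or stromal matrix gene, with its mean log2 signal in brackets, and each column a mouse; colour gives the log2 signal minus the mean of the 4 mice, and lines separate the groups. For Col1a2, Col3a1 and Col5a1 mouse 1 is lowest and mouse 3 highest, Dcn, Reln and Eln are nearly even across the mice, and the strongest colours lie in genes of low mean level such as Col4a4 (5.06) and Col19a1 (5.33).

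Among fibrillar chains, Col1a2 and Col3a1 had the largest spread for their level. Col3a1, the single chain of type III collagen, measured 9.35, 10.54, 10.67 and 9.95 log2 in mice 1 to 4. Mouse 1 was lowest and mice 2 and 3 were close together at the top, a difference of 2.49-fold between highest and lowest, with an SD of 0.61 that was 3.06 times the prior SD (unadjusted p = 0.019, adjusted p = 0.98, limma). Col1a2, the alpha 2 chain of type I collagen, measured 9.90, 10.63, 11.10 and 10.45 log2. It too was lowest in mouse 1 and highest in mouse 3, by 2.30-fold, with an SD of 0.50 (unadjusted p = 0.035, adjusted p = 0.98, limma). Without mouse 1 the SDs were 0.38 for Col3a1 and 0.33 for Col1a2.

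Second probe sets of these genes read lower signals. For Col3a1 the second probe set measured 5.94, 6.73, 7.02 and 6.31 log2 in mice 1 to 4, the same order of animals as the first. For Col1a2 it measured 2.46, 6.30, 6.28 and 4.31, again lowest in mouse 1, with mouse 2 level with mouse 3. Col1a1, the partner chain of Col1a2, measured 7.27, 7.25, 7.96 and 7.78 log2, highest in mouse 3 and lowest in mouse 2 by a margin of 0.01 over mouse 1, and is given here after its values were seen because of that partnership. Its second probe set, near the low end of the range at 5.30, 3.36, 6.54 and 3.32, was also highest in mouse 3.

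The stretches of 250 bases before the transcription starts of Col1a2 and Col3a1 are shown with that of Reln, because the first pair had the same lowest and highest animal and Reln was nearly level. They come from RefSeq on build GRCm38.p6 and are written 5′ to 3′ in the direction of the gene, with motif matches on either strand in capitals. The motifs searched included the letters CCAAT of the box of that name and the letters TATAAA of the so-called TATA box. Also searched were the letters GGGCGG of the GC box, and the CArG pattern given below. Col1a2 lies at chr6:4505368-4505617 on the plus strand, Col3a1 at chr1:45311288-45311537 on the plus strand and Reln at chr5:22344706-22344955 on the minus strand.
Col1a2: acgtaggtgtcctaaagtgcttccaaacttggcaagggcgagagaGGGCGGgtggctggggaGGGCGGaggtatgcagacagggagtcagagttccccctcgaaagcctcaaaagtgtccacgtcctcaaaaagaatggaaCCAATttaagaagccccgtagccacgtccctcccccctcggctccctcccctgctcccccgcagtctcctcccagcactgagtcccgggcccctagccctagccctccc
Col3a1: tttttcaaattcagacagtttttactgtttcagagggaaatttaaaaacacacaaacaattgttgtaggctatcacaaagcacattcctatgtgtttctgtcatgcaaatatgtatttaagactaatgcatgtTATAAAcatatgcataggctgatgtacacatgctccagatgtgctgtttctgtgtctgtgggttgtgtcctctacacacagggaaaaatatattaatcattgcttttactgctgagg
Reln: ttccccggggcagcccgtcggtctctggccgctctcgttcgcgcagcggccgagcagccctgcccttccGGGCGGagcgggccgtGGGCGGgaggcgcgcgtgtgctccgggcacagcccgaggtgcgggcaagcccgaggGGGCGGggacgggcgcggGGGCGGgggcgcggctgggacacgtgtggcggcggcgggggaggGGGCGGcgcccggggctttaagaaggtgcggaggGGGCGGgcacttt

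The windows of Col1a2 and Col3a1 had no motif type in common. Col1a2 held 1 CCAAT match, beginning 109 bases before the start, and 2 GC boxes. Col3a1 held 1 TATAAA match, beginning 117 bases before the start, and Reln held 6 GC boxes. Of the 31 members with a window, 13 held a CCAAT match in at least 1 window, 5 a TATAAA match and 17 a GC box. The CArG box, the element bound by serum response factor, was searched only as CC, 6 letters A or T, then GG. An exact match to it was held by 0 members. Copies with a mismatch were not searched, so this count does not show that the members lack such an element. Over all 32851 windows of that length, 33.8% held a CCAAT box, 12.4% a TATA box, 32.7% a GC box and 1.47% a CArG box.

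The chains of type V collagen were closer between animals on the probe sets used. Type V collagen nucleates the fibrils of type I, and its alpha 1 chain Col5a1 measured 8.70, 9.19, 9.24 and 8.90 log2, with mouse 1 lowest and mouse 3 highest by 1.45-fold. Col5a2 measured 8.06, 8.16, 8.71 and 7.97, with mouse 3 above the other 3 animals, which lay within 0.20 log2 of each other. Its second probe set, at 6.67, 4.13, 6.00 and 6.65, was highest in mouse 1 and lowest in mouse 2. Col5a3 measured 8.67, 8.69, 8.58 and 8.84, the smallest spread of the group (SD 0.11), with mouse 3 lowest. Col11a2, a cartilage chain with a low mean of 6.21, measured 6.84, 7.06, 4.65 and 6.28, and Col11a1 and Col2a1, also chains known from cartilage, had SDs of 0.49 and 0.45 around means of 7.42 and 3.29.

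As a group, the 9 fibrillar chains had a median of 0.53 log2 in mouse 3, taken as each chain's level minus the mean of the remaining animals, with 7 of 9 higher, and of -0.40 in mouse 1, with 1 of 9 higher. The medians were 0.15 in mouse 2 and -0.14 in mouse 4, values that became -0.024 and -0.31 without mouse 1, and 0.38 and 0.0057 without mouse 3. Over all genes the medians were -0.05, 0.06, 0.09 and -0.06 in mice 1 to 4. Leaving out 1 mouse gave 0.42 to 0.69 for mouse 3, and the mean over the 9 chains was 0.22, since Col11a2 was lowest there. With the mean over each gene's probe sets the median of mouse 1 was -0.08.

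**Figure D2:**
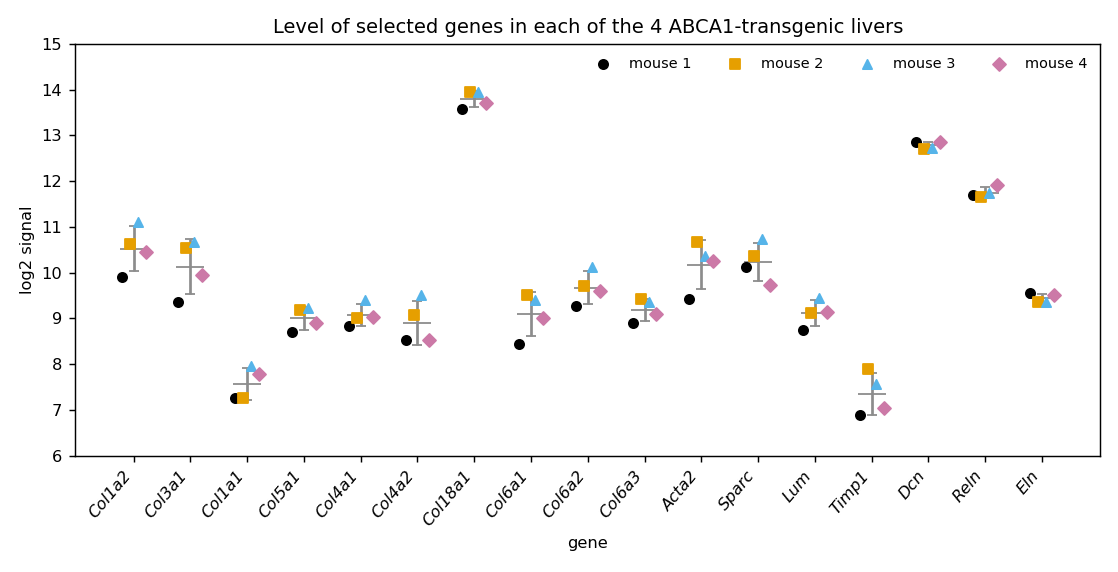
The log2 signal of 17 genes is plotted for each mouse, with a grey bar for the mean and whiskers for the SD (n = 4); levels of different genes are not comparable. Mouse 1 is the lowest point for Col1a2, Col3a1, Col6a1, Col6a2, Col6a3 and Acta2, while the points of Dcn, Reln and Eln nearly coincide.

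Among basement membrane chains, Col4a1, Col4a2, Col18a1 and Col15a1 showed a similar order on the probe sets used. Col4a1 and Col4a2 form the type IV network found in nearly all tissues. Col4a1 measured 8.83, 9.02, 9.40 and 9.03 log2 in mice 1 to 4, and Col4a2 8.52, 9.06, 9.51 and 8.52, so both were highest in mouse 3. Mice 1 and 4 were level at the bottom for Col4a2, which had 1.98-fold between highest and lowest. Col18a1, a basement membrane zone collagen that gives rise to endostatin, measured 13.57, 13.95, 13.95 and 13.72, and Col15a1, its relative, 6.80, 7.46, 8.07 and 7.32. Mouse 1 was lowest for both and mouse 3 highest, level with mouse 2 for Col18a1. The second probe set of Col18a1 had the same lowest and highest mouse. That of Col4a1 measured 8.57, 8.19, 8.79 and 8.26, also highest in mouse 3 but lowest in mouse 2.

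The remaining type IV chains, Col4a3, Col4a4, Col4a5 and Col4a6, had no common order. Col4a3 measured 6.77, 7.68, 8.12 and 6.93 log2, high in mice 2 and 3. Col4a4, at a mean of 5.06, measured 6.91, 4.69, 4.16 and 4.49, with mouse 1 far above the rest and mouse 3 lowest, whereas Col4a3 was lowest in mouse 1 and highest in mouse 3. Col4a5 measured 7.34, 7.30, 7.31 and 6.77, with mouse 4 apart and lowest. Its second probe set, at 5.74, 5.60, 5.37 and 6.63, placed mouse 4 highest. Col4a6 measured 7.39, 7.06, 6.73 and 7.25 (SD 0.29), highest in mouse 1 and lowest in mouse 3. Its second probe set, at 4.32, 3.51, 4.52 and 5.00, was highest in mouse 4 and lowest in mouse 2. The median of the 8 chains, taken in the same way, was 0.32 in mouse 3 (6 of 8 higher). It was 0.11 in mouse 2, and mice 1 and 4 lay at -0.31 and -0.32. The value of mouse 2 was 0.27 without mouse 3 and 0.0097 without mouse 4, and that of mouse 4 was -0.155 without mouse 3. Col4a4 alone turned the mean of mouse 1 to 0.04.

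Among the other collagens, the 3 measured chains of type VI collagen, which forms beaded filaments beside cells, were all lowest in mouse 1. Col6a1 measured 8.45, 9.51, 9.41 and 9.01 log2, Col6a2 9.26, 9.70, 10.13 and 9.60, and Col6a3 8.90, 9.41, 9.36 and 9.09. The spread was 2.08-fold, 1.83-fold and 1.43-fold, and unadjusted p-values of limma's test were 0.079, 0.14 and 0.43. A second probe set of Col6a2 read 8.99, 10.18, 10.28 and 8.97, which places mouse 4 level with mouse 1. Col14a1, a collagen that coats the surface of fibrils, measured 9.98, 10.20, 10.43 and 10.42, with mouse 1 lowest. Col13a1, a transmembrane collagen, measured 8.55, 8.85, 8.22 and 8.44, with mouse 3 lowest.

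The widest of these collagens had no common order, and those named here other than Col12a1 had a mean under 7. Col19a1 measured 6.55, 3.64, 5.10 and 6.04 log2 (mean 5.33), Col17a1, a hemidesmosome collagen of squamous epithelium, 3.23, 2.46, 4.47 and 1.93 (mean 3.02), and Col12a1, another fibril-coating collagen, 7.85, 5.54, 6.97 and 7.65 (SD 1.05, 2.26 times the prior SD, unadjusted p = 0.059, limma). On the probe sets used, mouse 2 was lowest for Col19a1 and Col12a1, and mouse 4 for Col17a1. The second probe set of Col19a1, at a similar mean of 5.12, reversed this. There mouse 2 was highest at 5.91 and mouse 1 lowest at 4.15. The other 11 members of the group, Col7a1, Col8a1, Col9a1, Col9a2, Col9a3, Col10a1, Col16a1, Col20a1, Col22a1, Col25a1 and Col26a1, had SDs of 0.22 (Col16a1) to 1.03 (Col22a1). For mouse 3 the group median was 0.34 (13 of 19 higher), and it lay at 0.05, 0.003 and -0.10 in mice 1, 2 and 4. With signals under 64 raised to 64 the median of mouse 3 was 0, and over the 11 genes with a mean of at least 7 the median of mouse 1 was -0.37.

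Level and spread went together across the set, as over the whole array. The 11 members with a mean log2 signal under 7 were Col2a1, Col4a4, Col8a1, Col9a2, Col9a3, Col10a1, Col11a2, Col17a1, Col19a1, Col22a1 and Col26a1, and their SDs ran from 0.25 to 1.28. Of these, 0 had an unadjusted p under 0.05 by limma's test against the prior SD at their level, and the largest ratio to it was 1.70, for Col11a2. No detection calls were used, so such signals may lie at background.

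**Figure D3:**
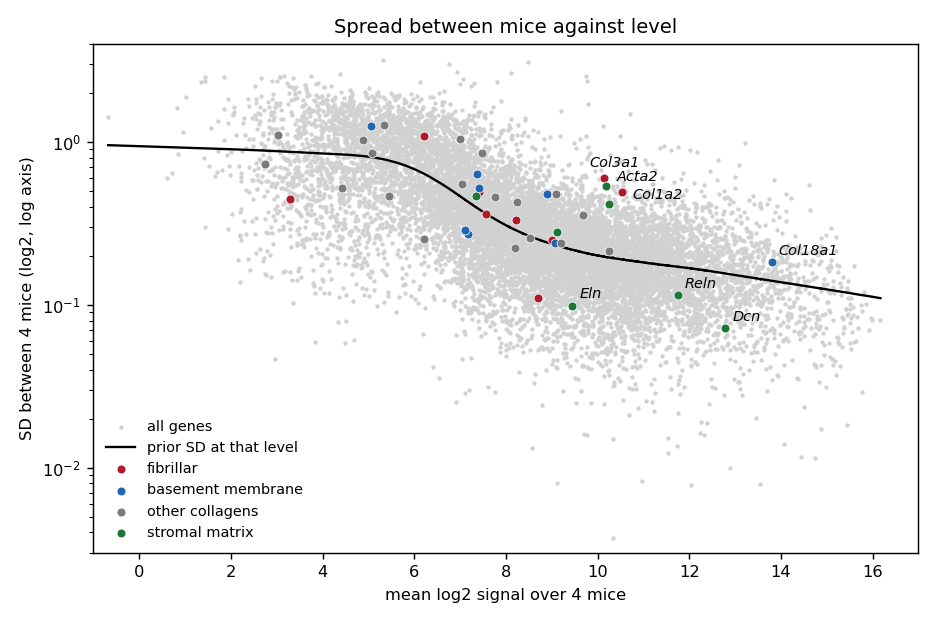
The SD between the 4 mice (log axis) is plotted against the mean log2 signal for all 12393 genes in grey, with the prior SD as a black line and the members coloured by group. Col3a1, Acta2 and Col1a2 lie above the line at means of 10.13, 10.18 and 10.52, Dcn, Reln and Eln lie below it, and members of low level scatter around it.

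Some stromal matrix genes were uneven between animals and others nearly level. Acta2, the smooth muscle actin of vessel walls and of activated stellate cells, measured 9.42, 10.66, 10.37 and 10.25 log2 in mice 1 to 4. Mouse 1 lay below the other 3, which were within 0.41 log2 of each other, a difference of 2.37-fold between highest and lowest (unadjusted p = 0.030, adjusted p = 0.98, limma). Without mouse 1 the SD of Acta2 went from 0.53 to 0.21. The probe set used ends in _s_at, a class that can cross-hybridise, and whether it did so here was not tested. The second probe set of Acta2, at 5.75, 6.19, 5.69 and 5.55, was also highest in mouse 2 but placed mouse 4 lowest. In liver RNA, fewer cells of a type and less RNA per cell cannot be told apart, here as for the collagens.

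Sparc, a collagen-binding matricellular protein, measured 10.12, 10.36, 10.73 and 9.74 log2, highest in mouse 3 and lowest in mouse 4 by 1.99-fold. A second probe set of Sparc at 9.82, 10.23, 10.50 and 9.98 was highest in mouse 3 too, and lowest in mouse 1. Lum, lumican, a small proteoglycan that spaces collagen fibrils, measured 8.75, 9.12, 9.44 and 9.15, lowest in mouse 1 and highest in mouse 3. Timp1, an inhibitor of matrix metalloproteinases, measured 6.88, 7.89, 7.57 and 7.04, higher in mice 2 and 3 than in mice 1 and 4.

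The nearly level genes were Dcn, Reln and Eln. Dcn, decorin, which binds collagen fibrils and is made by stellate cells and portal fibroblasts, measured 12.85, 12.71, 12.73 and 12.85 log2. Its SD of 0.07 was 0.46 times the prior SD, and the animals differed by at most 1.10-fold. Reln, reelin, a secreted glycoprotein that stellate cells make in liver, measured 11.69, 11.65, 11.74 and 11.91 (SD 0.11). Eln, elastin, measured 9.55, 9.36, 9.36 and 9.51 (SD 0.10), with mice 1 and 4 slightly above mice 2 and 3. Its second probe set went the other way, at 5.50, 5.68, 5.60 and 5.26. With arrays shifted to the same median the SDs of Dcn, Reln and Eln were 0.16, 0.19 and 0.19, so how even they appear depends on the scaling. For the 7 genes together the median was 0.26 above the other mice in mouse 3 (4 of 7 higher), a value of -0.04 without mouse 1, and -0.16 in mouse 1 (2 of 7 higher).

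Genes with several probe sets allowed a test of whether those probe sets share a difference between mice beyond their own disagreement (limma's moderated residual variance, F-test, Benjamini-Hochberg adjustment over 4956 genes). Of 22 members with at least 2 probe sets, 0 passed, while 0.383% of all such genes did. At an unadjusted p under 0.05 there were 5 of 22 members (22.7%), Col3a1, Col18a1, Col6a2, Sparc and Col1a2, beside 9.12% of all such genes. The smallest of these p-values was 0.0091 for Col3a1, with an adjusted p of 0.34. Of the 19 members with exactly 2 probe sets, 8 had the same highest mouse on both (42.1%, against 33.1% of all genes with 2), and 5 the same lowest mouse (26.3%, against 30% of all such genes).

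Chains that join in 1 collagen molecule were compared within each array, since a difference of log2 signals on the same array removes what that array shares. For Col6a1 and Col6a3 the SD of the difference over the 4 mice was 0.25, against 0.48 and 0.24 for the chains alone. For Col6a1 and Col6a2 it was 0.28, against 0.48 and 0.36. Col5a1 and Col5a2 gave 0.24 (chains alone 0.25 and 0.33), Col4a1 and Col4a2 0.29 (0.24 and 0.48), and Col1a1 and Col1a2 0.36 (0.36 and 0.50). Whether a difference varied less than both of its chains depended on the animals and the scaling. Without mouse 1 the SD was 0.28 for Col6a1 with Col6a2 (chains alone 0.26 and 0.28), 0.26 for Col5a1 with Col5a2 (0.18 and 0.38) and 0.092 for Col6a1 with Col6a3 (0.26 and 0.17). Without mouse 2 it was 0.11 for Col6a1 with Col6a2. With arrays shifted to the same median Col5a1 alone varied by 0.18, less than its difference from Col5a2. With the mean over each gene's probe sets the type I pair gave 1.34 and Col5a1 with Col5a2 0.75.

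Other pairs varied more in their difference. Col4a3 and Col4a4, neighbouring genes of chromosome 1, gave 1.75 against 0.63 and 1.25 alone. Without mouse 1 they gave 0.76, against 0.60 and 0.27 alone. Col4a5 and Col4a6, neighbours on the X chromosome, gave 0.45 against 0.27 and 0.29. Col11a1 and Col11a2 gave 1.29, Col9a1 and Col9a2 1.08, and Col9a1 and Col9a3 0.62, pairs in which at least 1 chain had a mean under 7. Without mouse 3 the value for Col11a1 with Col11a2 was 0.34, and without mouse 4 that for Col9a1 with Col9a2 was 0.60. RefSeq places 7 pairs of members next to each other, among them Col6a2 with Col6a1 on chromosome 10. Dcn and Lum, also neighbours on chromosome 10, had SDs of 0.07 and 0.28 and a difference that varied by 0.33.

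Genes that act on collagen showed part of the same order. Of 19 measured genes of collagen synthesis and crosslinking, 10 were highest in mouse 3 (33.5% of all genes were), and 14 of 19 exceeded the remaining animals there, with a median of 0.37. Pcolce, the enhancer of procollagen C-proteinase, was the widest and measured 9.06, 9.71, 10.37 and 9.46 log2, the same order as Col1a2 (unadjusted p = 0.035, adjusted p = 0.98, limma). P4hb, a subunit of prolyl 4-hydroxylase that is also a general protein disulfide isomerase, was the narrowest at 14.83, 14.76, 14.84 and 14.94. Pcolce alone of the list had an unadjusted p under 0.05, and 0 of 19 passed the adjusted test.

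Further matrix lists shared the order of the members only in part. The 13 basement membrane genes that are not collagens had medians of -0.20 in mouse 1, their lowest, and 0.15 in mouse 3, their highest. Of these 13 genes, 6 were lowest in mouse 1, where 28.8% of all genes were. However, 5 were highest in mouse 1 and 5 in mouse 3, where 17.4% and 33.5% of all genes were. An unadjusted p under 0.05 by limma's test was found for 1 of 13, beside 3.7% of all genes. Lamb1, a laminin beta chain, measured 7.26, 8.14, 8.17 and 8.13, and Lama4 was nearly level (SD 0.08). The 8 further small proteoglycans and the 13 elastic fibre genes were highest at the median in mouse 2, at 0.31 and 0.23, with Omd (SD 0.48) and Mfap5 (SD 0.65) the widest and Prelp (SD 0.11) and Fbln1 (SD 0.14) the narrowest. Matrix glycoproteins were lowest at the median in mouse 1, at -0.13, and highest in mouse 3, at 0.14. Among them Vtn, vitronectin, was at 14.94 ± 0.05 (SD, n = 4) and Thbs1 at 7.21 ± 0.32 (SD, n = 4). Of 15 matrix degradation genes 10 were higher in mouse 3, and likewise 10 were in mouse 2, beside 59.8% and 57.9% of all genes. Mmp14, a membrane collagenase, measured 9.88, 10.16, 10.18 and 9.29, whereas Timp2 varied by 0.08. The 6 collagen receptors were at -0.45 in mouse 4, with Lair1 (SD 0.38) the widest and Ddr1 (SD 0.26) the narrowest.

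The TGF-beta and PDGF list, which mixes fibrogenic signals, receptors, transducers and inhibitors, had a negative median in mouse 3. Its median there was -0.29, with 5 of 17 genes higher, where 59.8% of all genes were, and 8 of 17 at their lowest, where 20.4% of all genes were. The genes higher there were Tgfb1 (0.30), Tgfb2 (0.28), Tgfbr2 (0.38), Pdgfra (1.27) and Pdgfrb (0.165). Among the lower genes were the inhibitors Smad7 (-0.50), Bambi (-1.27) and Skil (-0.29), so the median does not give a direction of signalling. Pdgfb, a growth factor for stellate cells, measured 8.25, 7.79, 6.66 and 8.07 log2, and Smad2, a TGF-beta signal transducer, varied by an SD of 0.03. In these 6 lists other than synthesis and non-collagen basement membrane, 0 genes had an unadjusted p under 0.05, and 0 passed the adjusted test.

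**Figure D4:**
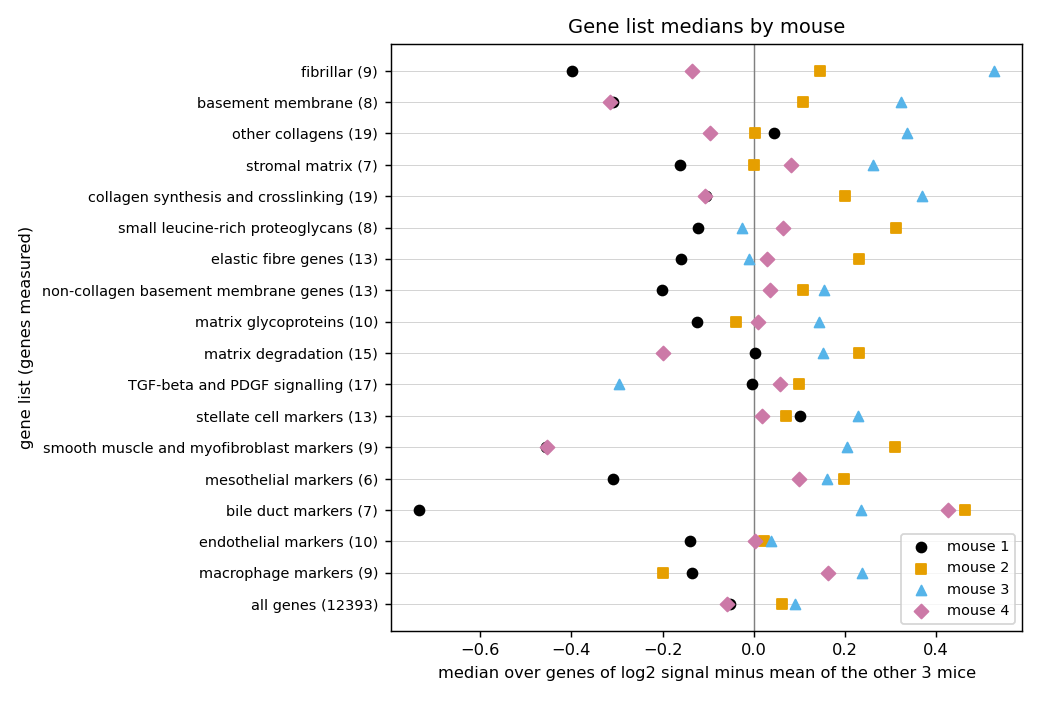
Each point is the median over the genes of a list of the log2 signal of 1 mouse after subtracting the mean of the remaining 3, with the number of genes measured in brackets. Mouse 3 is the highest point for the 4 member groups, collagen synthesis and crosslinking, non-collagen basement membrane genes and matrix glycoproteins. It is also highest for stellate cell, endothelial and macrophage markers and for all genes. For TGF-beta and PDGF signalling mouse 3 is the lowest point. The medians over all genes lie between -0.06 and 0.09.

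Markers of the cells that could carry these transcripts moved in part with them, and their part in the results was not tested. Stellate cell markers had a median of 0.23 in mouse 3 (11 of 13 genes higher) and of 0.10 in mouse 1 (8 of 13 higher), and 4 of 13 were at their lowest in mouse 1. Their summed signal ran from 6723 in mouse 2 to 7945 in mouse 3, with Cygb (SD 0.55) the widest and Ecm1 (SD 0.10) the narrowest. Smooth muscle and myofibroblast markers were -0.46 in mouse 1 with 0 of 9 higher, and -0.45 in mouse 4 with 2 of 9 higher. Their summed signal ran from 2343 in mouse 1 to 3224 in mouse 4. Tpm2 alone gave 1518, 1562, 1435 and 2377 of the sums of mice 1 to 4. Of the 9 markers, 2 were highest in mouse 4 and 4 were lowest there. Tagln, transgelin of smooth muscle, measured 7.33, 8.22, 7.74 and 7.31, and Synpo2 varied by an SD of 0.11.

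Several other lists also had their lowest median in mouse 1. Mesothelial markers were at -0.31 with 0 of 6 higher (Gpm6a SD 0.32, Upk3b SD 0.16). Their summed signals in mice 1 to 4 were 8320, 7644, 10127 and 8186. Krt8, at a mean of 12.89 log2, alone gave 7603, 6681, 9148 and 7232 of these. The sums mostly follow that gene and are not read here as mesothelial content. Endothelial markers were at -0.14 with 3 of 10 higher (Vwf SD 0.28, Eng SD 0.08, summed signal 18844 to 20465). Bile duct markers were at -0.73 with 0 of 7 higher and a summed signal of 637 in mouse 1 against 1444 to 1636 in the others. Skeletal muscle markers were at -3.40 with 0 of 12 higher, and exocrine pancreas markers at -1.16 with 0 of 9 higher (summed signal 1831 in mouse 1 to 6916 in mouse 2). Macrophage markers were 0.24 above in mouse 3 with 9 of 9 higher (summed signal 32178 to 40841). The lowest mean of a marker in these lists was 3.91 log2, among the stellate cell markers, and adipocyte markers were highest in mouse 2, at 0.91 with 4 of 6 higher.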

How the data were processed

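Total RNA of each liver was extracted with Trizol, cleaned on columns with DNase treatment, amplified from 2 ug by RiboAmp and labelled with biotin, per the labels' protocols. The authors deposited linear intensities, a single value for each probe set on each array. RMA is named in the submitters' processing notes, with no version, yet the deposited intensities are not quantile-equal, reach down to 0.1 and have a mean of 1000 on every array after trimming 2% at each end. The sources used here do not give the background treatment. Here log2 was taken without a pseudocount, 64 control probe sets were left out and no further scaling was applied. The median intensity per array was 267 to 305, and the number of arrays limits the precision: the 95% interval of an SD from 4 arrays is 0.57 to 3.73 times its value.

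Gene symbols came from the platform annotation (20380 probe sets with 1 symbol, 691 with several, 1555 with none). Variances were tested across all genes with limma 3.58.1 in R 4.3.3 and Benjamini-Hochberg adjustment. The procedures were also run on simulated data, where the excess spread test missed most altered probe sets at a 4 times or 8 times larger SD. Of 243 list entries 214 were measured. Values are given for the stromal matrix genes and, in each collagen group, for the 5 of highest mean and the 3 of largest SD; of other lists, for the widest and narrowest gene with a mean of at least 7. A few further members are given after their values were seen. The members and lists were chosen with earlier results of these data known. Promoter windows came from RefSeq (GRCm38.p6). Samples were taken as 1 animal each, since the labels speak of biological replicates without further detail. Alternatives covered scaling, low signals, cross-hybridising probe sets, the prior, the value per gene and leaving out each mouse.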

Additional observations from a re-analysis of the deposited data

Results flagged for a closer look

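Of the members, 1 of 43 had a mouse set far apart from the other 3, beside 5.91% of all genes. On the probe set used, Col4a5 measured 6.77 log2 in mouse 4 against 7.30 to 7.34 in mice 1 to 3. Its second probe set went the other way, with mouse 4 highest at 6.63 against 5.37 to 5.74. Chance flags about 1 in 20 genes in this way.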

How the results depend on the processing

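No member passed either adjusted test under any alternative run; the test of excess spread called 10 probe sets in all when mean log2 signals under 7 were left out. Members with an unadjusted p under 0.05 numbered 5 with quantile normalization, 6 with mean log2 under 7 left out and 2 to 5 without 1 mouse, against 3. The counts of members highest in mouse 3 and lowest in mouse 1, an alternative set chosen after seeing the data, stayed within 1.5 times their main values: 17 were highest in mouse 3 with quantile normalization or arrays shifted to the same median, against 28.1% and 23.1% of all genes. That shift moved the median of all genes by -0.08 in mouse 3 and 0.11 in mouse 4. Of 112 group medians recomputed with all mice, 97 moved by less than the spread between mice and 20 changed sign; of 48 without 1 mouse 10 changed sign. Fibrillar chains stood at -0.0799 in mouse 1 with the mean over a gene's probe sets and at 0.22 in mouse 3 with the mean over members, and basement membrane chains at 0.040 in mouse 1 with the mean over members. Other collagens in mouse 3 were at 0.19 with quantile normalization and 0 with signals under 64 raised to 64, in mouse 4 at 0.045 with arrays shifted to the same median, in mouse 1 at -0.37 with mean log2 under 7 left out, and in mouse 2 at 0.30 with the mean over a gene's probe sets. Without 1 mouse they ran from -0.23 to -0.063 in mouse 1, 0.019 to 0.18 in mouse 2 and -0.30 to 0.055 in mouse 4. Stromal matrix genes in mouse 3 were at -0.013 without probe sets ending in _s_at or _x_at and at 0.063 with the mean over a gene's probe sets; in mouse 4 at 0.22 with arrays shifted to the same median, -0.12 with the mean over a gene's probe sets and -0.0763 with the mean over members; with the mean over members at -0.30 in mouse 1 and 0.17 in mouse 2. Leaving out 1 animal gave -0.43 to -0.091 in mouse 1, -0.073 to 0.16 in mouse 2, -0.043 to 0.49 in mouse 3 and -0.13 to 0.067 in mouse 4. Of 96 recomputed chain pair SDs, 94 moved by less than their main value; with the mean over a gene's probe sets Col1a1 with Col1a2 gave 1.34 and Col5a1 with Col5a2 0.75. The causes were not tested. No paired analysis was possible because only 1 group of the series was analysed here.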
